A study of Mus musculus with 4 samples.

Results

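A set of 10 genes that ERK signalling is known to induce, Dusp1, Dusp2, Dusp4, Dusp5, Dusp6, Spry1, Spry2, Egr1, Egr2 and Ier3, was followed over 4 lines of the mouse lymphocytic leukemia cell line L1210 (DBA subline 212). They were taken by gene symbol from the deposited array annotation, and each of the 10 had exactly 1 probe, 10 of the 55681 gene probes and 10 of the 24561 gene symbols on the array. All 4 lines were made by lentiviral infection and sorting of GFP+ cells that carried the insert stably. L1210-Control received the control construct, L1210-Fbxw11a the full-length transcript of Fbxw11, L1210-Fbxw11c the variant with exon 2 deleted in frame and L1210-Fbxw11d the variant that lacks exons 2 and 3. Fbxw11 encodes an F-box protein of an SCF ubiquitin ligase, and the comparison of each variant line with L1210-Control asks how RNA levels differed with the insert. The lines are called control, Fbxw11a, Fbxw11c and Fbxw11d below. Each line is 1 stable population measured on 1 Agilent 1-colour array, so no difference has a replicate check and no test across samples was possible.

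In the ERK cascade, Ras, Raf and MEK pass a growth signal to the kinase ERK, which switches on immediate early genes without new protein synthesis. Some of these genes encode transcription factors that carry the response on, such as Egr1 and Egr2. Others close negative feedback loops: dual-specificity phosphatases remove the phosphates that activate ERK and its relatives, and Sprouty proteins act between the receptor and Raf. Ier3 encodes a short-lived protein that is induced early by growth factors, stress and NF-κB and that has been described as a regulator of ERK dephosphorylation and of cell survival.

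Of the 10 genes, Ier3 was lower in all 3 variant lines, by 2.06-fold in Fbxw11a, 2.10-fold in Fbxw11c and 1.71-fold in Fbxw11d. Dusp1 and Dusp2, which encode nuclear MAP kinase phosphatases, were higher in all 3 lines, with log2 ratios to the control of 0.57 to 0.82 for Dusp1 and of 0.59 to 0.99 for Dusp2. The values in Fbxw11d depended on how its array was scaled, since with no scaling between arrays the log2 ratio there was -0.15 for Ier3, within 2 SDs of the spread between spots, 1.20 for Dusp1 and 1.35 for Dusp2. The other 6 genes with a measured level, Dusp4, Dusp5, Dusp6, Spry2, Egr1 and Egr2, lay within 0.5 of the control on the log2 scale in every variant line when arrays were scaled. Spry1 did not rise well above background anywhere.

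The probes and promoters of these 3 genes are shown because these genes were farthest from the control. The first 30 of the 60 probe bases are given as the array files hold them, with the pentamer ATTTA, the core of AU-rich elements found in many short-lived mRNAs, in capitals.

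Ier3 probe: tgctgtaacacagatATTTAttacgATTTA

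Dusp1 probe: gcgtatgagagtttttacctttATTTAttt

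Dusp2 probe: gtgggcatctcgctgtaattggtgctgaaa

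The Ier3 probe lies at chr17:35959528-35959587 on the plus strand of mm9, the build of the deposited annotation, and the Dusp2 probe at chr2:127163930-127163989 on the plus strand. For the Dusp1 probe that annotation lists only the 11 bases chr17:26642526-26642536 on the minus strand. No mm9 gene models were used here, so the exon under each probe is not given. Over the whole probe, ATTTA occurred 2 times in Ier3, 1 time in Dusp1 and 1 time in Dusp2, where it lies beyond the bases shown. Egr1 also had 1 match and the other 6 genes had none. ATTTA was present in 7.71% of all gene probes, and 0.488% had at least 2.

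The 250 bases before the transcription start of each gene are given from the RefSeq promoter table of GRCm38.p6, read along the gene. Capitals mark a match to a kappa B motif in Ier3, to the cyclic AMP response element TGACGTCA in Dusp1 and to the Egr motif GCGGGGGCG in Dusp2.

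Ier3 promoter, chr17:35821463-35821712, plus strand: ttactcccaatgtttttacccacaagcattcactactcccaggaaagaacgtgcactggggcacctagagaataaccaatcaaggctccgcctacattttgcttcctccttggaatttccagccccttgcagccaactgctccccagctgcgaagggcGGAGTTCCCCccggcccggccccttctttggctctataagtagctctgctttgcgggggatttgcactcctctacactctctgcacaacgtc

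Dusp1 promoter, chr17:26508473-26508722, minus strand: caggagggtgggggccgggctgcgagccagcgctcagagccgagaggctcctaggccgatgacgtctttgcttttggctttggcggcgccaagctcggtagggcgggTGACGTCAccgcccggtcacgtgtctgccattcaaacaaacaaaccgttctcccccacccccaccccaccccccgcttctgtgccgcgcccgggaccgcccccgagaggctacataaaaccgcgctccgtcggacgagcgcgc

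Dusp2 promoter, chr2:127335909-127336158, plus strand: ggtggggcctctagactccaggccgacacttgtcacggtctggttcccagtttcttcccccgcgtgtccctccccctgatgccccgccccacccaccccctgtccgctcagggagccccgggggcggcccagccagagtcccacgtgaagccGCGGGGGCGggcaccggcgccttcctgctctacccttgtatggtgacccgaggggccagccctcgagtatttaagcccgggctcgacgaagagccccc

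The windows were searched on both strands for the CArG box that serum response factor binds, TGACGTCA, the AP-1 motif TGANTCA, the ETS motif CCGGAAGT, the Egr motifs GCGTGGGCG and GCGGGGGCG, and a kappa B motif. The kappa B match in Ier3 begins 92 bases before the start, and 7.25% of all 32851 windows of that length hold this motif. The TGACGTCA of Dusp1 begins 143 bases before its start (1.55% of windows) and the GCGGGGGCG of Dusp2 begins 98 bases before its start (2.57% of windows). The windows of Dusp2, Dusp1 and Ier3 were 70.4%, 68.4% and 54.4% G or C, against a median of 52.4% over all windows. The shares given were not matched for this. The table had windows for 8 of the 10 genes, 12 windows in all, and Dusp4 and Egr1 had no entry. The CArG box, present in 1.47% of windows, was found in Dusp5 and in 4 of the 5 windows of Egr2, of which the last 3 overlap and hold the same match. Neither gene differed by 2-fold in any line. Dusp5 held 2 such matches side by side, and the first Egr2 window held 2 overlapping kappa B matches. The AP-1 motif, the ETS motif and GCGTGGGCG were in no window of these genes. A match is a stretch of letters and not evidence that a factor binds there.

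The signals behind these statements were taken from the scanner output, as intensity after the scanner software's background subtraction, and each array was scaled by its own 75th percentile. That percentile was 620.2 on the control and 627.3, 672.5 and 954.2 on Fbxw11a, Fbxw11c and Fbxw11d. The first 3 arrays were on slide 1 and Fbxw11d was alone on slide 2, so the slide and this variant cannot be told apart. The E1A spike-in RNAs of the array differed from the control after scaling by 0.13 ± 0.06 (SD, n = 8 probes), 0.15 ± 0.10 (SD, n = 8) and -0.59 ± 0.09 (SD, n = 8) on the log2 scale in the same order. Before scaling they differed by 0.15, 0.27 and 0.034. Between 62.5% and 68.7% of gene probes were well above background. The 2 Fbxw11 probes had log2 ratios to the control of 0.025 to 0.31. They did not show the high Fbxw11 levels that the paper reports for these lines from real-time RT-PCR and western blotting. Whether these probes lie within the inserted sequence is not given in the sources used here. Of 11 lymphoid and B lineage markers, 7 were well above background on all 4 arrays, Pax5 and Vpreb1 among them, and Cd79b, Ebf1, Igll1 and Rag1 on none. Pax5 and Vpreb1 were dim, at 29.7 and 24.1 in the control, where the lowest signal well above background was 18.1. Of the markers of other cell types, 8 of 10 for T cells, 8 of 11 for macrophages and monocytes and 5 of 12 for fibroblasts and stromal cells were also well above background on all 4 arrays. Their summed signals ranged over the lines from 5543 to 5834, from 159774 to 195575 and from 519 to 634, and the lymphoid sum from 26539 to 33371. The macrophage sum was mostly Ly6c1, at 145676 of 160297 in the control. The lymphoid sum was mostly Blnk and Cd24a, at 18268 and 7744 of 26539 in the control. Past 2-fold among these markers were Cd28, lower by 2.25-fold, 2.25-fold and 2.59-fold in the 3 variant lines, Zap70, lower by 2.14-fold in Fbxw11c, and Csf1r, lower by 2.18-fold in Fbxw11d, all named after their values were seen. None of these held under every setting: with normexp background correction the log2 ratios of Cd28 were -0.79 in Fbxw11a and -0.86 in Fbxw11c and that of Zap70 was -0.55, and with no scaling between arrays Cd28 and Csf1r in Fbxw11d were at -0.75 and -0.50 and Zap70 in Fbxw11c at -0.98. Every line came from the same cell line by a GFP+ sort. The part of other cells in the results was not tested, and fewer cells of a type cannot be told apart from less RNA per cell.

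**Figure D1:**
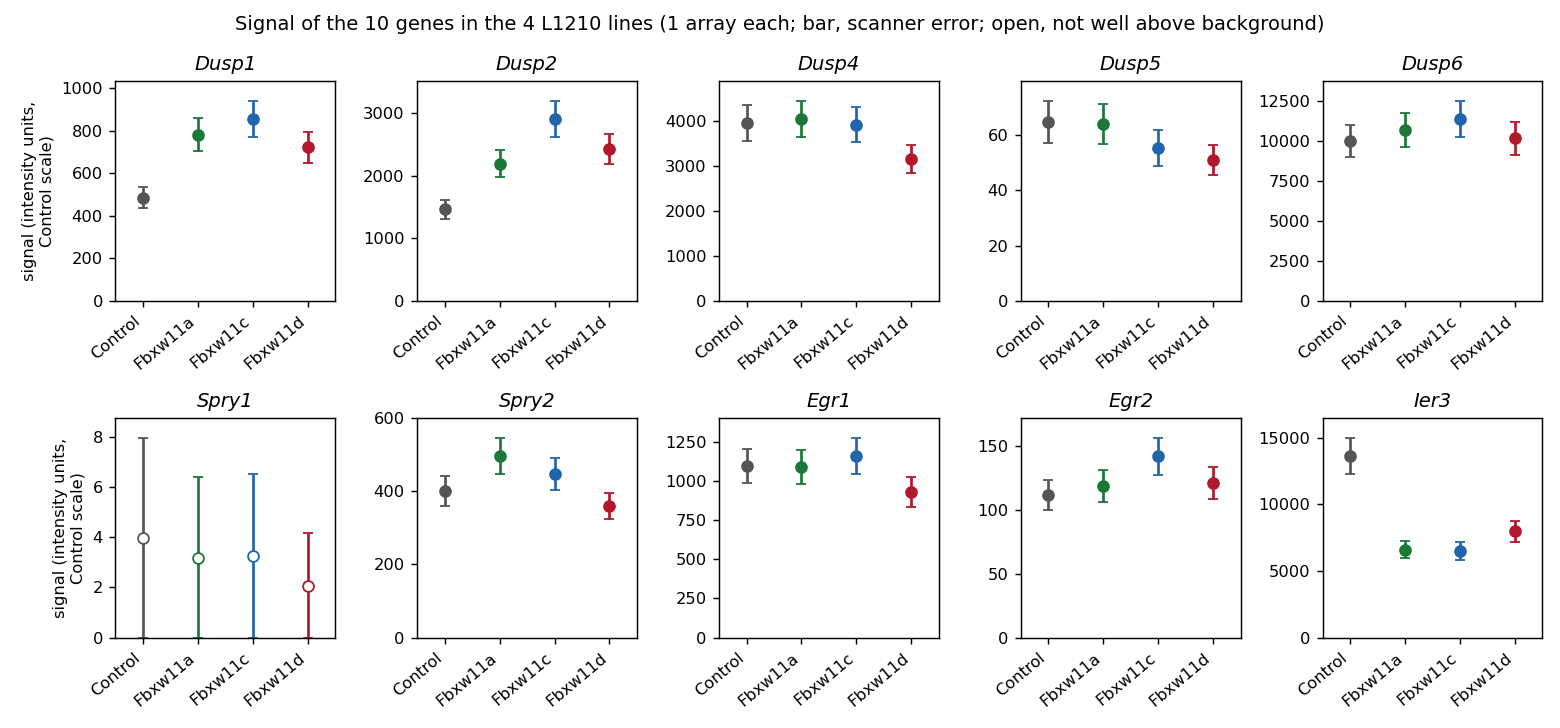
Signal of each of the 10 genes (vertical axis, intensity units on the scale of the control array, starting at 0) in the 4 lines, with 1 array a line. Bars are the scanner software's error of the spot and open points are not well above background; Ier3 stands highest in the control, at 13652, and Dusp1 and Dusp2 stand lowest there, at 484 and 1462.

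The Ier3 signal, on the scale of the control array, was 13652 ± 1365 (scanner error of the spot) in the control line. It was 6615 ± 662 in Fbxw11a, 6495 ± 650 in Fbxw11c and 7996 ± 800 in Fbxw11d. The control line was the highest, and the 3 variant lines lay below it. The log2 ratios to the control were -1.05, -1.07 and -0.77. Each probe of the 10 genes was printed on 1 spot, so the spread between spots was taken from probes printed on 10 spots with similar signal, and as the SD of a log2 ratio it was 0.086, 0.080 and 0.10 for Ier3. All 3 ratios were beyond 2 such SDs, except that in Fbxw11d with no scaling between arrays, where every log2 ratio of Fbxw11d to the control is higher by 0.62. This spread covers the array alone and leaves out culture, sorting and RNA extraction. In order of level, Fbxw11c and Fbxw11a did not differ beyond 2 spot SDs, and the control was above Fbxw11d. The level in Fbxw11d was 0.27 above that in Fbxw11a on the log2 scale, beyond 2 spot SDs. This gap was within 2 with quantile normalization and the deposited log2 values, at 0.22 in both, and with normexp background correction, at 0.19. The gap of Fbxw11d above Fbxw11c was 0.30, and it was beyond 2 under every scaling and background correction tried, from 0.23 to 0.80.

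Among probes well above background on both arrays, 1.22% had a ratio as low as that of Ier3 or lower in Fbxw11a, 1.26% in Fbxw11c and 8.10% in Fbxw11d. The ratio in Fbxw11d depended on the scaling: it was -0.84 with quantile normalization, -0.55 when arrays were centred on their medians and -0.15 with no scaling between arrays. The median of all probes compared in Fbxw11d was itself 0.18 with centring on the median and 0.59 with no scaling. In Fbxw11a the 2-fold threshold was just missed, at -0.99, with normexp background correction, and in Fbxw11c Ier3 was at -1.0, on the threshold, with centring on the median and at -0.96 with no scaling.

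**Figure D2:**
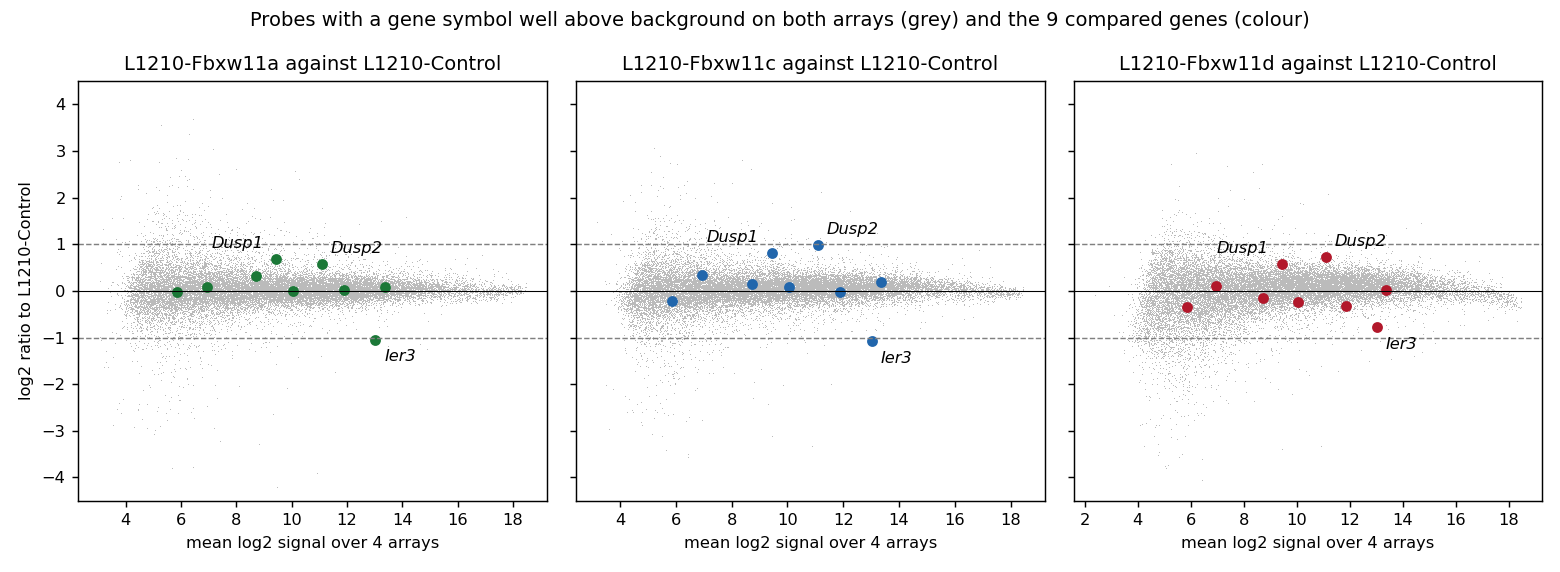
Log2 ratio to the control (vertical axis) against the mean log2 signal over the 4 arrays (horizontal axis) for every probe that has a gene symbol and is well above background on both arrays (grey) and for the 9 compared genes (colour), 1 panel for each variant line, with dashes at 2-fold. Ier3 lies at -1.05, -1.07 and -0.77, and Dusp1 and Dusp2 lie between 0.57 and 0.99.

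Dusp1 (also known as MKP-1), a nuclear phosphatase that acts on p38, JNK and ERK, had a signal of 484 ± 48.6 in the control, 781 ± 78.2 in Fbxw11a, 853 ± 85.4 in Fbxw11c and 721 ± 72.2 in Fbxw11d. The control line was the lowest. The order of the 3 variant lines was not settled. Fbxw11d and Fbxw11c, the farthest apart, differed by a log2 ratio of -0.24, which was 2.08 spot SDs, but by -0.097 with centring on the median and -0.16 with normexp background correction, both within 2, and by 0.26 with no scaling between arrays. Fbxw11c and Fbxw11a differed by 0.13, within 2 spot SDs, but by 0.20 with normexp and 0.23 with no scaling, both beyond 2. Fbxw11d and Fbxw11a differed by -0.11, within 2, and by 0.49, beyond 2, with no scaling. The log2 ratios were 0.69, 0.82 and 0.57, with spot SDs of 0.098, 0.087 and 0.12. Of the probes well above background on both arrays, 3.49%, 1.59% and 4.60% had a ratio at least as high.

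Dusp2 (PAC-1), a nuclear phosphatase of ERK and p38 that is best known from activated lymphocytes, had a signal of 1462 ± 146 in the control, 2194 ± 219 in Fbxw11a, 2904 ± 290 in Fbxw11c and 2425 ± 242 in Fbxw11d. As for Dusp1, the control line was the lowest and Fbxw11c the highest, except that Fbxw11d was the highest for both genes with no scaling between arrays. The log2 ratios were 0.59, 0.99 and 0.73, with spot SDs of 0.092, 0.088 and 0.12, and 4.72%, 1.0% and 2.35% of probes had a ratio at least as high. The level in Fbxw11c exceeded that in Fbxw11a by 0.40 and that in Fbxw11d by 0.26 on the log2 scale, both beyond 2 spot SDs. The gap to Fbxw11a held under every scaling tried, whereas the log2 ratio of Fbxw11d to Fbxw11c was -0.11, within 1 spot SD, with centring on the median and 0.24 with no scaling between arrays. Fbxw11d was above Fbxw11a by 0.14, within 2 spot SDs, and by 0.36 and 0.75, beyond 2, under the same pair of settings. In Fbxw11c Dusp2 stayed just under 2-fold and passed it, at 1.06 on the log2 scale, when arrays were centred on their medians.

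The other 3 phosphatases were closer to the control. Dusp4 (MKP-2), a nuclear phosphatase of ERK and JNK, had signals of 3968, 4049, 3923 and 3157 in the control, Fbxw11a, Fbxw11c and Fbxw11d. Fbxw11d was the lowest, at a log2 ratio of -0.33 with a spot SD of 0.11, and the other 3 lines were within 2 spot SDs of each other. This ratio was -0.11, within 2 spot SDs, with centring on the median and 0.29 with no scaling between arrays, so its sign depended on the scaling of the Fbxw11d array.

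Dusp5, a nuclear phosphatase specific for ERK, gave a dim probe, with 64.7, 63.9, 55.4 and 51.0 in the same order. Its log2 ratios of -0.017, -0.22 and -0.34 were all smaller than their spot SDs of 0.34 to 0.39, so a difference of this size was not detectable at this signal. Dusp6 (MKP-3), the cytoplasmic phosphatase specific for ERK and a widely used readout of ERK activity, had signals of 10045, 10724, 11383 and 10176. Its log2 ratios were 0.094, 0.18 and 0.019, with spot SDs of 0.084 to 0.11, and the ratio in Fbxw11c alone was beyond 2 spot SDs. That ratio was within 2 with quantile normalization, at 0.13, with the deposited log2 values, at 0.12, and with normexp, at 0.16, while the ratio in Fbxw11d was beyond 2, at 0.24, with centring on the median and at 0.64 with no scaling.

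Of the Sprouty genes, whose proteins restrain receptor tyrosine kinase signalling upstream of ERK, Spry2 had signals of 401, 497, 447 and 360. Fbxw11a was the highest and Fbxw11d the lowest, and no 2 neighbours in this order differed beyond 2 spot SDs, although Fbxw11c was beyond 2 from the control, at 0.23, with centring on the median. The log2 ratios to the control were 0.31, 0.16 and -0.15, and the first, with a spot SD of 0.10, was beyond 2 spot SDs. Spry2 in Fbxw11d changed sign, to 0.063 with centring on the median and to 0.47, beyond 2 spot SDs, with no scaling. Spry1 had signals of 3.98, 3.19, 3.25 and 2.07, below the lowest signal well above background of each array (18.1, 14.4, 14.9 and 10.4 on the same scale), and no fold change is given.

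Egr1, a zinc finger transcription factor induced within minutes of ERK activation, had signals of 1093, 1088, 1159 and 928. Its log2 ratios of -0.0067, 0.084 and -0.24 differed from 0 beyond 2 spot SDs in Fbxw11d alone, where the ratio was -0.018 with centring on the median, -0.20, within 2 spot SDs, with normexp and 0.39 with no scaling between arrays. Neighbouring lines in order of level lay within 2 spot SDs of each other, except that Fbxw11d and Fbxw11a differed by -0.26 with quantile normalization and with the deposited log2 values, and by 0.38, the other way, with no scaling. Egr2, a related factor with a role in lymphocyte tolerance, had signals of 112, 119, 142 and 121. The control was the lowest and Fbxw11c the highest, but the log2 ratios of 0.091, 0.35 and 0.12 lay within 2 of their spot SDs, which were 0.20 to 0.23. The ratio in Fbxw11c, just inside that limit, was beyond 2 with quantile normalization and the deposited log2 values, at 0.40 in both, with centring on the median, at 0.42, and with no scaling, at 0.46, where the ratio in Fbxw11d was 0.74.

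**Figure D3:**
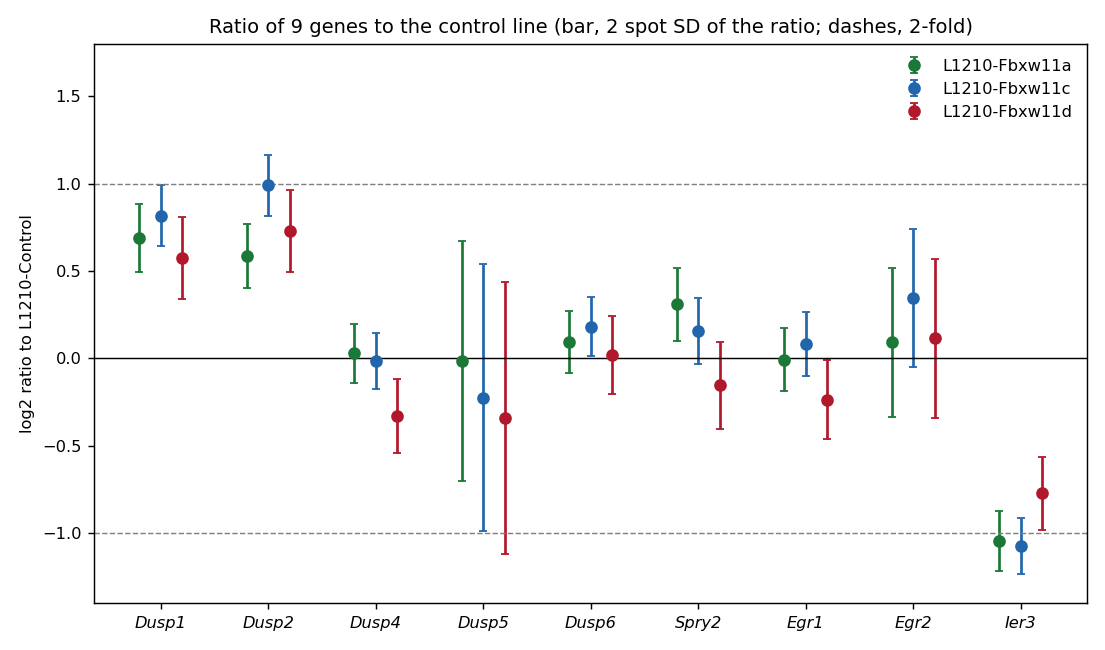
Log2 ratio to the control (vertical axis) of the 9 compared genes in the 3 variant lines, with bars of 2 spot SDs of the ratio and dashes at 2-fold. Ier3 lies below 0 and Dusp1 and Dusp2 above 0 in all 3 lines, and the bars of Dusp5 and Egr2 include 0 in each.

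In Fbxw11a against the control, 1 of the 9 compared genes reached the 2-fold threshold that the methods state, Ier3, beside 5.13% of all probes compared in either direction and 2.42% in the lower direction. In Fbxw11c it was again Ier3 alone, beside 4.47% of probes in either direction and 2.78% lower. In Fbxw11d none of the 9 reached 2-fold, and 6.97% of probes did. These counts rest on Ier3 by itself, and nothing about the group of genes is read from them. The median log2 ratio of the 9 was 0.091 in Fbxw11a, 0.16 in Fbxw11c and -0.15 in Fbxw11d, while the median of all probes well above background on both arrays was -0.011, -0.0031 and -0.0072. In each of the 3 comparisons 6 of the 9 genes lay within 0.5 of the control, as did 84.1%, 85.5% and 78.0% of all probes compared. The 3 comparisons share the control array, so a high or low value on that array enters all of them.

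The variant lines can also be set against each other without the control array. None of the 9 genes differed by 2-fold between Fbxw11c and Fbxw11a, where 4.92% of all probes did, between Fbxw11d and Fbxw11a, where 7.34% did, or between Fbxw11d and Fbxw11c, where 5.26% did. All 9 stayed within 0.5 on the log2 scale in these 3 comparisons when arrays were scaled, whereas with no scaling 8 did between Fbxw11c and Fbxw11a, 5 between Fbxw11d and Fbxw11a and 8 between Fbxw11d and Fbxw11c. Unscaled, Ier3 differed by 0.88 and 0.80 between Fbxw11d and the other 2 lines. The widest gap between Fbxw11c and Fbxw11a was the 0.40 of Dusp2. Between Fbxw11d and the other 2 lines the widest gap depended on the scaling of the Fbxw11d array. Against Fbxw11a it was Spry2, at a log2 ratio of -0.46, and with centring on the median it was Ier3, at 0.49. Against Fbxw11c it was Egr1, at -0.32, while it was Dusp4, at -0.35, with quantile normalization and Ier3, at 0.45, with centring on the median. With no scaling between arrays the Spry2 and Egr1 gaps were 0.14 and 0.18.

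Over the 4 lines together, the range from lowest to highest was 1.07 for Ier3, 0.99 for Dusp2 and 0.82 for Dusp1 on the log2 scale, and between 0.18 and 0.46 for the other 6. Among the 33071 probes well above background on all 4 arrays the median range was 0.39, and 10.1% had a range of 1 or more. The genes whose 4 levels, each centred on its own mean, lay nearest to those of Ier3 by Euclidean distance were Gm13011 at 0.085, Gvin1 at 0.091, Derl3 at 0.096, Ces2b at 0.12 and Rab32 at 0.14, out of 16245 genes well above background on all 4 arrays. In all 205 genes lay within a distance of 0.5.

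**Figure D4:**
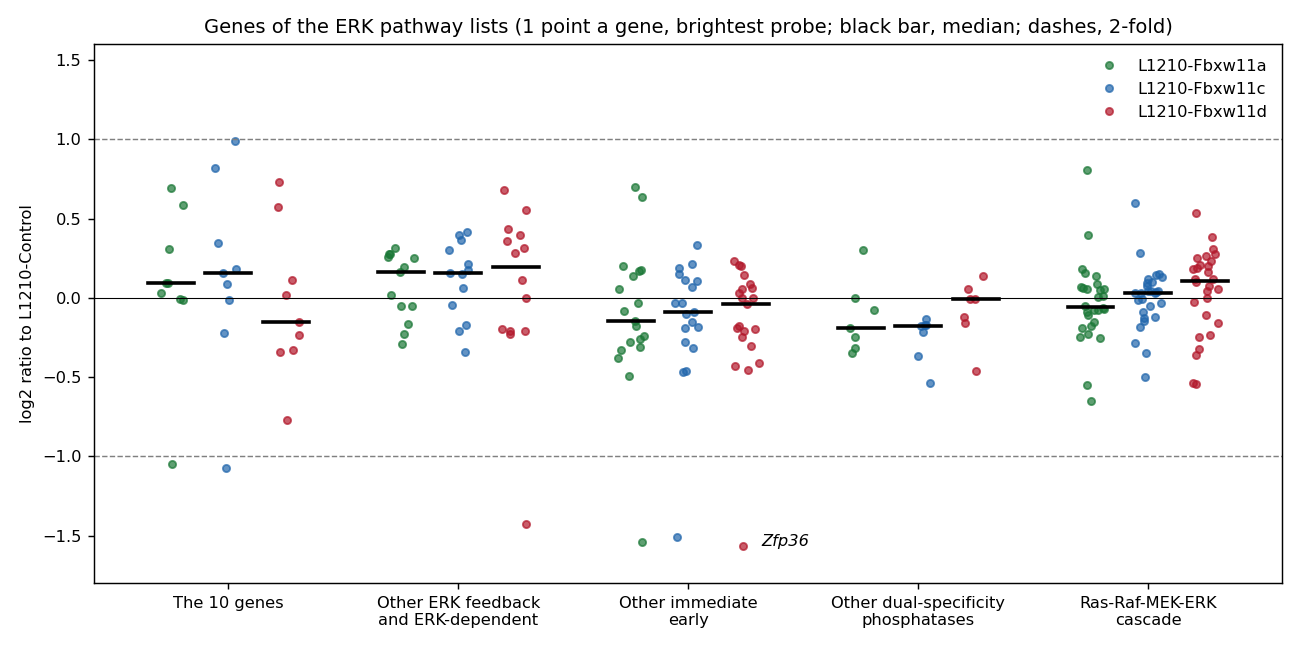
Log2 ratio to the control (vertical axis) of every compared gene in the 10 genes and in 4 lists around them, for the 3 variant lines, with 1 point a gene, a black bar at the median and dashes at 2-fold. The medians lie between -0.19 and 0.20, and Zfp36 is the one gene of the 4 other lists beyond 2-fold in all 3 lines.

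Other genes of the pathway were counted by the brightest probe of each gene, where 4.45%, 3.88% and 5.75% of all genes compared reached 2-fold in Fbxw11a, Fbxw11c and Fbxw11d. Of 15 other feedback and ERK-dependent genes, among them Spry4, the Spred genes and the ETS factors Etv4 and Etv5, none of the 13 compared reached 2-fold in Fbxw11a or Fbxw11c, and 1 of 14 was lower in Fbxw11d. That gene, named after its value was seen, was Etv1, with signals of 117, 113, 113 and 43.5 and a log2 ratio in Fbxw11d of -1.43, or -0.81 with no scaling between arrays. The list's medians were 0.16, 0.16 and 0.20. Spred2, an inhibitor of Raf activation, was the gene of this list with the largest ratio in its least changed line, at 0.25, 0.37 and 0.68, and its ratio in Fbxw11d was 1.30 with no scaling between arrays, when 4 of the 14 genes compared were past 2-fold, beside 13.6% of all probes. Fosl1, which encodes an AP-1 subunit, had the smallest, at -0.23, -0.34 and -0.20, and its ratio in Fbxw11d changed sign, to 0.020 with centring on the median and to 0.42 with no scaling between arrays.

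Of 23 other immediate early genes, 19 were compared in Fbxw11a and in Fbxw11c and 21 in Fbxw11d, and 1 was lower by 2-fold in each, with list medians of -0.15, -0.089 and -0.039. In every line it was Zfp36, which encodes tristetraprolin, a protein that binds AU-rich elements of mRNAs. The Zfp36 probe was dim, at 78.2 on the control array and 26.9, 27.5 and 26.4 on the others. Its log2 ratios were -1.54, -1.51 and -1.56 with spot SDs of 0.48, 0.54 and 0.73, and with normexp background correction they were -0.63, -0.74 and -0.97, all short of 2-fold, as was the -0.94 in Fbxw11d with no scaling between arrays. Fos, which encodes the AP-1 subunit that pairs with Jun proteins, had the largest ratio in its least changed line, at 0.70, 0.33 and 0.20, the last of which was 0.42 with centring on the median and 0.82 with no scaling between arrays.

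None of the 7 other dual-specificity MAP kinase phosphatases reached 2-fold in any line, with medians of -0.19, -0.18 and -0.0099. Dusp10, which acts on p38 and JNK, was the farthest below the control in its least changed line, at -0.32, -0.54 and -0.46, and with no scaling between arrays its ratio in Fbxw11d was 0.16. None of the 28 genes of the Ras-Raf-MEK-ERK cascade reached 2-fold either with scaled arrays, with medians of -0.058, 0.032 and 0.11. Rasa1, a GTPase-activating protein that switches Ras off, had ratios of 0.39, 0.60 and 0.53. The last of these was 1.15 with no scaling between arrays, when 2 of the 28 were past 2-fold, beside 13.6% of all probes. The transcription factor gene Ets1 had ratios of -0.55, -0.50 and -0.54, the last of which was 0.078 with no scaling between arrays.

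**Figure D5:**
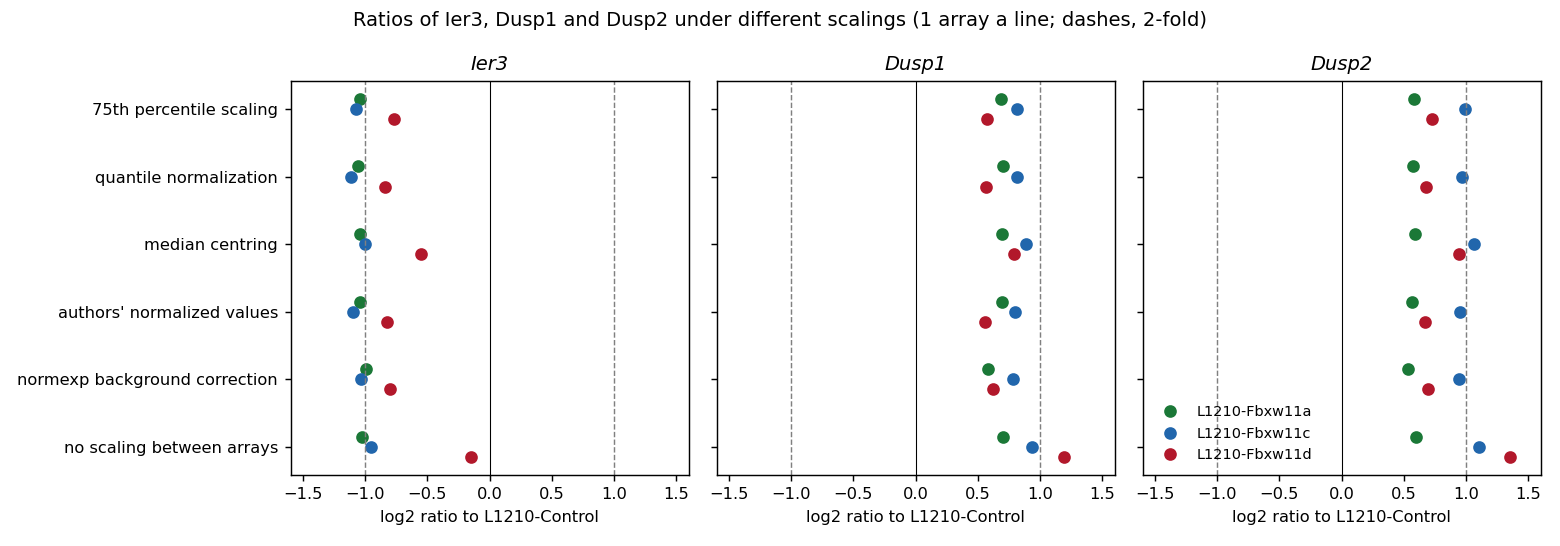
Log2 ratio to the control (horizontal axis) of Ier3, Dusp1 and Dusp2 in the 3 variant lines under 6 ways of background correction and scaling (vertical axis), with dashes at 2-fold. For Ier3 the values of Fbxw11a stay between -1.06 and -0.99, and those of Fbxw11d move from -0.84 to -0.15.

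Across the scalings and background corrections tried, the direction of Ier3, Dusp1 and Dusp2 was the same in each line. In Fbxw11d the ratio of Dusp1 was between 0.56 and 0.79 and that of Dusp2 between 0.67 and 0.95 when arrays were scaled, and they were 1.20 and 1.35 with no scaling between arrays. Of the ratios nearer to 0, the sign changed with the scaling or background correction for Dusp4 and Egr1 in Fbxw11a, Dusp4 in Fbxw11c and Dusp6, Spry2 and Egr2 in Fbxw11d. With no scaling between arrays it also changed for Dusp4, Dusp5 and Egr1 in Fbxw11d, where they were 0.29, 0.28 and 0.39.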

How the data were processed

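RNA of 4 L1210 lines was labelled with Cy3 and measured on 1 Agilent SurePrint G3 mouse array each. The authors deposited the scanner output, whose linear intensity values were background-subtracted per spot by Agilent Feature Extraction (10.7.1.1 in the headers, 9.1 in the submitters' processing notes), and a table of normalized log2 signals with gene symbols and mm9 positions. The normalization behind the deposited log2 values is not given in the sources used here. With them the median log2 ratios of the 9 genes were 0.086, 0.12 and -0.12 in Fbxw11a, Fbxw11c and Fbxw11d. With quantile normalization these medians were 0.085, 0.13 and -0.13, so the deposited values and quantile normalization may not be independent checks. From the intensities, outlier spots (102 to 167 per array) were left out, log2 values were lowered by the array's 75th percentile among gene spots, and repeated spots were averaged. A probe with a share of 0.5 or more of its spots above background by the scanner's flag counted as well above background, and it was compared if either array met this. Where 1 array alone did, the ratio was taken against the lowest signal well above background. All 9 measured genes were well above background on all 4 arrays. Genes with several probes were represented by the brightest. The threshold was 2-fold, and 1 array a line allows no test and limits the precision. Calling was tested on simulated data, and no result of that test is used here. Genes named from the other lists follow a rule. They reach 2-fold in one direction in all 3 variant lines, or have the largest or smallest ratio in their least changed line. Etv1 and the cell type markers past 2-fold in any setting were named outside this rule, after their values were seen. The genes and lists were chosen with earlier results of these data known. One lymphoid marker of the list is not reported here. R 4.3.3, limma 3.58.1, Python 3.11.15, numpy 2.4.6 and pandas 2.3.3 were used.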

Additional observations from a re-analysis of the deposited data

How the results depend on the processing

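The number of the 9 genes at 2-fold or more rose from 1 to 2 in Fbxw11c with centring on the median, when Dusp2 joined Ier3 (4.42% of all probes compared reached it there), and fell from 1 to 0 in Fbxw11a with normexp background correction (offset 50; 1.38% of probes). It was 3, 3 and 2 in Fbxw11a, Fbxw11c and Fbxw11d at a threshold of 1.5-fold, beside 12.7%, 11.4% and 17.7% of probes, and 0 in each at 3-fold, beside 2.35%, 1.98% and 2.36%. With no scaling between arrays, an alternative chosen after seeing the data, it was 2 in Fbxw11d, Dusp1 and Dusp2, beside 13.6% of probes, the 1 gene in Fbxw11c was Dusp2 in place of Ier3, beside 4.46%, and the median log2 ratio of the 9 genes was 0.27 in Fbxw11c and 0.47 in Fbxw11d. Centring on the median turned the median in Fbxw11d from -0.15 to 0.063. These settings also moved the median of all probes compared in Fbxw11d, to 0.18 with centring on the median and to 0.59 with no scaling. The causes were not tested. The counts were 1, 1 and 0 with quantile normalization, with the deposited log2 values and with dim probes kept. They were the same with dim probes on either array removed, with outlier spots kept and with either rule for genes with several probes. These last settings could not change the counts. The 9 genes were well above background on every array, with no outlier spot and 1 probe each. Keeping dim probes could only add Spry1. The shares of all probes ranged from 2.49% to 13.1% over these settings. Of the 27 log2 ratios to the control, 8 moved by more than 1 spot SD under at least 1 other scaling or background correction, or 17 with no scaling counted too, and 6 or 10 changed side of 2 spot SDs. Of the 27 ratios between variant lines, 11 or 15 changed side. No ratio at 2-fold or more changed sign. No paired analysis was possible because each line has 1 array. Signal over background limits Dusp5 and Spry1, and 1 array a line limits all comparisons.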
